A study of Homo sapiens with 4 samples.

Results

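The genes described here encode cytokines of the gp130 and colony-stimulating factor groups and their receptor chains: the ligands IL6, LIF, IL11, CSF1, CSF2 and CSF3 and the receptor chains IL6ST, LIFR, OSMR and IL6R. They were taken by gene symbol from a deposited RNA-seq count table of 19653 Ensembl identifiers, and all 10 symbols were found, each with 1 row. The table covers hTERT-RPE1, an established line of human retinal pigment epithelium that telomerase keeps dividing. Libraries labelled sg53BP1, with the genotype 53BP1 knockout, came from cells transduced with a lentiviral CRISPR-Cas9 vector that carried a guide RNA against 53BP1. Libraries labelled sgControl, with the genotype WT, came from cells that expressed the Cas9 vector without a guide. Each group had 2 libraries, both groups shared the hTERT line and Cas9, and neither received a treatment. Whether a group is 1 clone or a pool, and whether its libraries came from separate cultures, was not given in the sources used here, so p-values measure the spread between these libraries, which may be technical.

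Cytokines of the interleukin-6 family signal through gp130, the shared receptor chain encoded by IL6ST. IL-6 and IL-11 first bind their own alpha chains and then bring gp130 molecules together, while LIF and oncostatin M pair gp130 with the LIF or oncostatin M receptor chain, and the assembled receptors activate JAK kinases and STAT3. The colony-stimulating factors act through other receptors, on macrophages and granulocytes. Epithelial cells and fibroblasts are known to secrete both groups of cytokines in response to interleukin-1, with IL6 and CSF2 among the classic NF-kappaB targets.

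Library totals were 18164086 and 17883332 counts in the group labelled sg53BP1, against 16654411 and 16830331 counts in that labelled sgControl. Levels are given in CPM, the read count of a gene scaled to the size of its library. TP53BP1, the targeted gene, had 1743 and 1516 counts in the libraries labelled sg53BP1, against 431 and 594 in those labelled sgControl. It was 2.94-fold higher where the knockout is labelled (log2 fold change 1.56, SE 0.18, quasi-likelihood test of edgeR, p adjusted after Benjamini and Hochberg = 0.00224). Without sg53BP1 replicate 1 or 2 the adjusted p was 0.144 and 0.106. The RNA of the targeted gene thus goes against a loss, although an edited gene can still be transcribed, and every direction below follows the labels and would turn if they were exchanged. The pair labelled sgControl also lay further apart than the other: 1.74% of the tested genes differed more than 2-fold between the libraries labelled sg53BP1, against 8.0% between those labelled sgControl. Of the markers of retinal pigment epithelium, MITF had 37.6 and 31.4 CPM in sg53BP1-labelled, against 29.2 and 30.4 CPM in sgControl-labelled libraries. OTX2, KRT8 and KRT18 were also measured, as was PMEL, with 17 to 30 counts in a library. RLBP1 and TYR were near 0 in all 4 libraries, with at most 13 and 2 counts in any of them. BEST1 had 10 and 3 counts in the libraries labelled sg53BP1, against 25 and 5 in those labelled sgControl. RPE65 and TTR were not analysed here.

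The stretches around the start sites of CSF2, IL6 and IL11 are shown because CSF2 passed the test below, and IL6 and IL11 had the widest gaps between libraries of a group. They come from RefSeq on GRCh38.p14, not the hg19 build of the counts, and run 5′ to 3′ on the strand of the gene for 250 bases before the start and 50 from it. Capitals mark matches, on either strand, to 4 motifs that were searched: AP-1 as TGANTCA, C/EBP as TTGCNNAA, STAT as TTCNNNGAA, and the NF-kappaB consensus. CSF2 lies at chr5:132073539-132073838 on the plus strand, IL6 at chr7:22726950-22727249 on the plus strand and IL11 at chr19:55370414-55370713 on the minus strand.
CSF2: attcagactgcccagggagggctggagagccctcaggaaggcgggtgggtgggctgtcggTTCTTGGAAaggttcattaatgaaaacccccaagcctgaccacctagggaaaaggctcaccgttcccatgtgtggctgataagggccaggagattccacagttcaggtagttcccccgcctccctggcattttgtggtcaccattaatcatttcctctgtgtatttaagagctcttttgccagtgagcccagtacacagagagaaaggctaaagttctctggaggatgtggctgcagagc
IL6: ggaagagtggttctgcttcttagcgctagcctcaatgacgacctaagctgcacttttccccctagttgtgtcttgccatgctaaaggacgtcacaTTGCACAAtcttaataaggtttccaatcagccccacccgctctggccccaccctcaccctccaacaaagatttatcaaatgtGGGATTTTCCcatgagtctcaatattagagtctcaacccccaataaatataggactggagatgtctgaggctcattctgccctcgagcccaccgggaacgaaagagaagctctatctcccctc
IL11: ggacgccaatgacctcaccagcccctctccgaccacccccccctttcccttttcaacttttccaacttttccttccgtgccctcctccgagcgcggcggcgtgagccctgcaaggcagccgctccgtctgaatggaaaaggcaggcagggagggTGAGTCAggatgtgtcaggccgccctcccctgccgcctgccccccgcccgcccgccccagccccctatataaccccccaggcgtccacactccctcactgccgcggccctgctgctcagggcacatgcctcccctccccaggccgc
Counted with the start base as 0, IL6 held the C/EBP match TTGCACAA at −155 to −148 and the NF-kappaB match GGGATTTTCC at −73 to −64. CSF2 held the STAT match TTCTTGGAA at −190 to −182, and IL11 the AP-1 match TGAGTCA at −96 to −90. None of the marked matches shares bases with another. RefSeq entries were found for 7 of the 10 genes, LIFR with 3 start sites. Among these 7 genes, 3 held an AP-1 match (IL6R, OSMR and IL11), 3 a C/EBP match (LIFR, OSMR and IL6), 2 a STAT match (LIFR and CSF2) and 2 an NF-kappaB match (IL6ST and IL6). Over 35116 promoters of this length, 7.71% held the AP-1, 10.5% the C/EBP, 7.66% the STAT and 11.3% the NF-kappaB motif. These shares are of single start sites, whereas LIFR was counted if any of its 3 start sites matched, so the 2 are not on the same footing. A match describes letters in this window, and the data hold no measurement of binding.

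Of the 10 genes, 1 passed the test between the groups. CSF2 was lower in the libraries labelled sg53BP1 at an edgeR adjusted p under 0.05, as were 3.01% of all 13140 genes tested (5.08% passed in either direction). CSF3 was too low to be tested. In 7 of the 9 tested genes, IL6, LIF, CSF2, IL6ST, LIFR, OSMR and IL6R, both libraries labelled sg53BP1 lay below both labelled sgControl, as they did for 25.9% of all tested genes. The groups overlapped for IL11 and CSF1. No gene of the set had both libraries labelled sg53BP1 above the others, and the share of all tested genes in that direction was not computed. The median log2 fold change of the 9 genes was −0.49, beside −0.02 over all tested genes. The share of all tested genes at an unadjusted p under 0.05 was not computed, so counts at that cut stand without it throughout. At this cut the edgeR test gave 4 of the 9, namely CSF2, LIF, OSMR and IL6ST. These 4 were called with the DESeq2 Wald test, which passed 7.54% of all genes, and without a filter on low counts, where 7.88% passed. The count was 0 of 9 without sg53BP1 replicate 1 and without sg53BP1 replicate 2, where 0.0366% of all genes passed each time (edgeR, 3 and 2 of the set at an unadjusted p under 0.05). It was 7 without sgControl replicate 1, where 24.5% of all genes passed, and 6 without sgControl replicate 2, where 18.4% did.

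**Figure D1:**
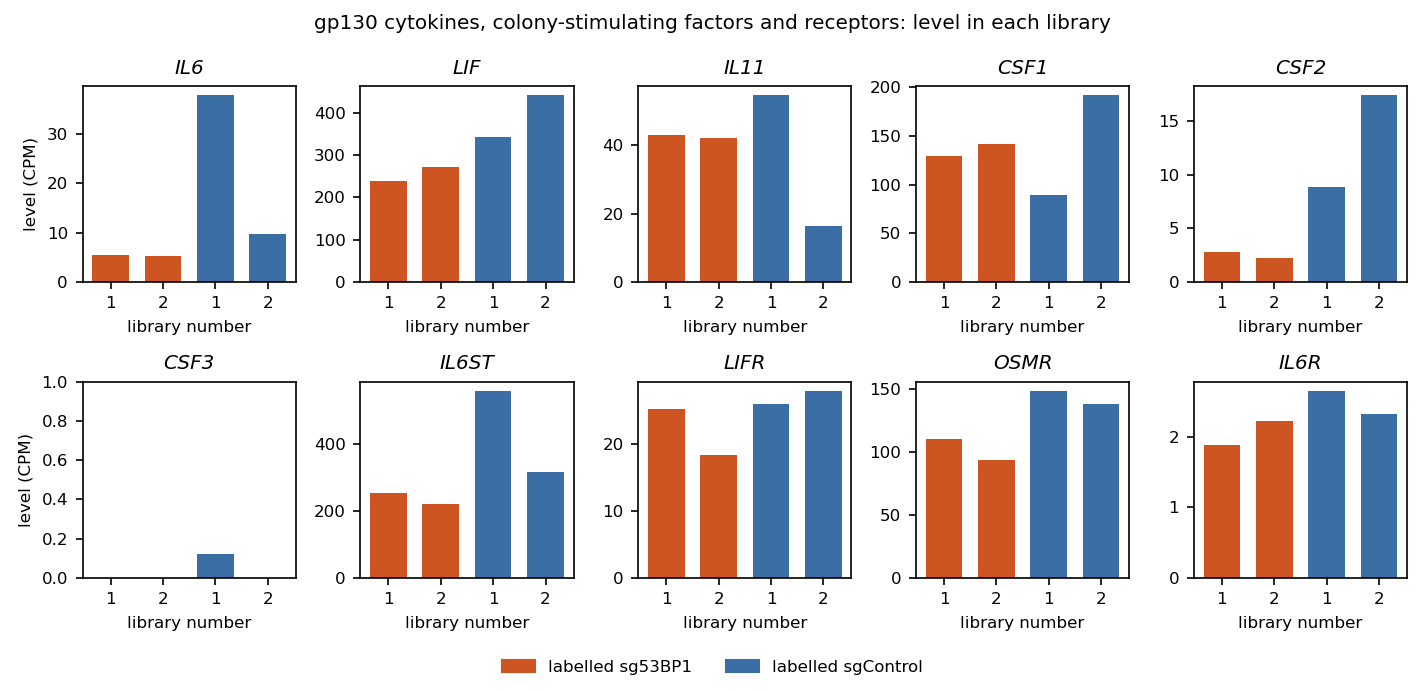
Level of each gene in CPM (vertical axis, from 0) in each of the 4 libraries (horizontal axis, libraries 1 and 2 labelled sg53BP1 and then 1 and 2 labelled sgControl). CSF2 reached 2.77 CPM at most in the libraries labelled sg53BP1, against at least 8.86 CPM in those labelled sgControl, while IL6 and IL11 stood highest in sgControl library 1 and CSF1 and LIF in sgControl library 2.

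CSF2 encodes granulocyte-macrophage colony-stimulating factor, which drives the growth and activation of granulocytes, macrophages and dendritic cells. It had 50 and 40 counts in the libraries labelled sg53BP1, against 147 and 292 in those labelled sgControl. In levels this was 2.77 and 2.22 CPM in sg53BP1-labelled, against 8.86 and 17.4 CPM in sgControl-labelled libraries. The mean was 2.49 ± 0.384 CPM in sg53BP1-labelled and 13.1 ± 6.03 CPM in sgControl-labelled libraries (SD, n = 2 each). All libraries labelled sg53BP1 were low, and sgControl library 2 stood 1.96-fold above sgControl library 1. CSF2 (ENSG00000164400) fell by 2.39 on the log2 scale, with an SE of 0.37 and a 95% interval of −3.24 to −1.54 (edgeR, adjusted p = 0.0106). The authors' deposited table, whose sign is control over knockout, gave it a log2 fold change of 2.37, a standard error of 0.41 and 1.06e-06 as adjusted p. Without sg53BP1 replicate 1 or 2 the adjusted p was 0.283 and 0.349, with log2 fold changes of −2.55 and −2.24. Without sgControl replicate 2 the log2 fold change was −1.82 (adjusted p = 2.67e-08).

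CSF1, the macrophage colony-stimulating factor that keeps monocytes and macrophages alive, did not separate the groups. It had 2337 and 2552 counts in the libraries labelled sg53BP1, against 1479 and 3225 in those labelled sgControl. The levels were 129 and 142 CPM in sg53BP1-labelled, against 89.1 and 192 CPM in sgControl-labelled libraries, so that both libraries labelled sg53BP1 lay between the 2 labelled sgControl. Its log2 fold change was −0.05 (SE 0.45, 95% interval −1.48 to 1.37, edgeR adjusted p = 0.974). Set against sgControl library 2 alone (without sgControl replicate 1) CSF1 was lower in the libraries labelled sg53BP1, with a log2 fold change of −0.47 (adjusted p = 0.00181). Set against sgControl library 1 alone (without sgControl replicate 2) it was higher, with 0.61 (adjusted p = 9.95e-05). In these 2 fits the lone control library is assumed to vary like the close pair labelled sg53BP1. CSF3, the granulocyte colony-stimulating factor, had 0 and 0 counts in the libraries labelled sg53BP1, against 2 and 0 in those labelled sgControl. In the libraries with 0 counts, 3 counts, the limit that a count of 0 allows, correspond to 0.165 to 0.178 CPM. No difference in CSF3 was thus detectable. Such limits cover counting error alone, because PCR copies of a molecule cannot be told apart here.

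IL6, the inflammatory cytokine that gives the family its name, was lowest in both libraries labelled sg53BP1, but the libraries labelled sgControl lay too far apart for a call. IL6 had 100 and 95 counts in the libraries labelled sg53BP1, against 629 and 163 in those labelled sgControl. In levels this was 5.53 and 5.28 CPM in sg53BP1-labelled, against 37.9 and 9.70 CPM in sgControl-labelled libraries. The groups did not overlap, yet sgControl library 1 stood 3.91-fold above sgControl library 2, a gap that 2.17% of all tested genes reached in log2 CPM. The log2 fold change was −2.14 with an SE of 0.88 and a 95% interval of −5.16 to 0.88 (edgeR adjusted p = 0.376). It was −0.81 without sgControl replicate 1 (adjusted p = 0.00934) and −2.80 without sgControl replicate 2 (adjusted p = 1.28e-45), so the size of the difference rests on which control library is used. The authors' deposited table gave 2.13, control over knockout, with an adjusted p of 0.207. IL6 overlaps STEAP1B and the antisense gene AC073072.1, both on the opposite strand, and AC073072.1 was not analysed here. The strand setting was not given in the sources used here. STEAP1B had 676 and 623 counts in the libraries labelled sg53BP1, against 466 and 469 in those labelled sgControl, and did not share the gap between the control libraries.

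IL11, which acts on stromal, bone and blood-forming cells through its own alpha chain and gp130, showed the same gap between the control libraries. It had 778 and 757 counts in the libraries labelled sg53BP1, against 907 and 274 in those labelled sgControl, or 43.0 and 42.1 CPM in sg53BP1-labelled, against 54.6 and 16.3 CPM in sgControl-labelled libraries. Both libraries labelled sg53BP1 therefore lay inside the span of the other pair. The log2 fold change was 0.26 (SE 0.76, 95% interval −2.52 to 3.05, edgeR adjusted p = 0.909). Its direction depended on the control library: 1.41 without sgControl replicate 1 (adjusted p = 4.16e-14) and −0.35 without sgControl replicate 2 (adjusted p = 0.0802). IL6 and IL11 were thus both above 3-fold higher in sgControl library 1 than in library 2, while they stood apart from each other in the libraries labelled sg53BP1, where IL6 lay below both control libraries and IL11 between them.

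LIF, leukaemia inhibitory factor, a cytokine known in mice for keeping embryonic stem cells undifferentiated and for protecting photoreceptors, was the most abundant ligand of the set per length. It had 4320 and 4889 counts in the libraries labelled sg53BP1, against 5702 and 7412 in those labelled sgControl. The levels were 239 and 272 CPM in sg53BP1-labelled, against 344 and 441 CPM in sgControl-labelled libraries, with no overlap between the groups. The mean was 255 ± 23.1 CPM in the libraries labelled sg53BP1 and 392 ± 69.0 CPM in those labelled sgControl (SD, n = 2 each). The log2 fold change was −0.62, with an SE of 0.15 and a 95% interval of −0.97 to −0.27. It missed the threshold with an edgeR adjusted p of 0.0548, and passed in the authors' deposited table (0.60, control over knockout, adjusted p of 0.00833) and with the DESeq2 Wald test (adjusted p = 0.00768). LIF overlaps the antisense gene LIF-AS1, which had 1 and 2 counts in the libraries labelled sg53BP1, against 2 and 4 in those labelled sgControl. A further antisense gene that overlaps LIF, AC004264.1, was not analysed here.

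**Figure D2:**
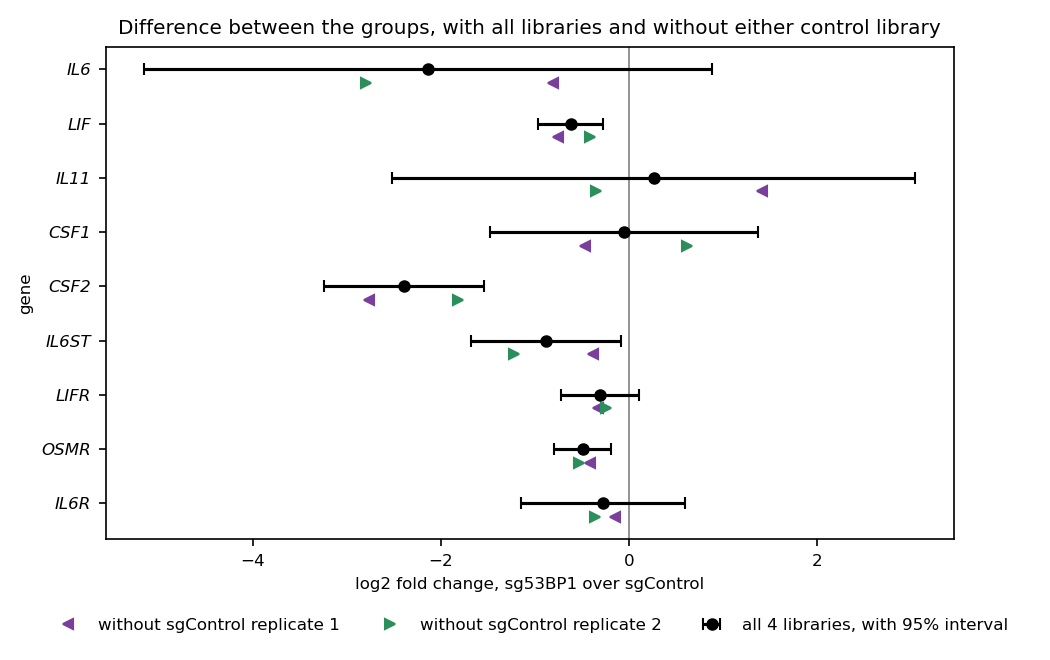
Log2 fold change of the 9 tested genes, sg53BP1 over sgControl (horizontal axis). Black points with bars are the fit of all 4 libraries with its 95% interval, and triangles are the fits without either control library. The triangles of IL11 and CSF1 lie on opposite sides of 0, those of the other 7 genes below 0, and the intervals of IL6, IL11, CSF1, LIFR and IL6R cross 0.

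The receptor chains all had negative log2 fold changes, and none passed the adjusted threshold of the edgeR test. IL6ST, which encodes gp130, had 254 and 222 CPM in the libraries labelled sg53BP1, against 559 and 318 CPM in those labelled sgControl. Its counts were 4585 and 3998 in sg53BP1-labelled, against 9286 and 5337 in sgControl-labelled libraries, and sgControl library 1 was again the higher of its pair, by 1.76-fold. The log2 fold change was −0.88 (SE 0.30, 95% interval −1.68 to −0.08, unadjusted p = 0.0373, adjusted p = 0.223 in the edgeR test across all genes). OSMR, the oncostatin M receptor chain, had 110 and 93.2 CPM in the libraries labelled sg53BP1, against 148 and 138 CPM in those labelled sgControl. Here the control libraries lay close together, and the log2 fold change of −0.49 (SE 0.13, 95% interval −0.80 to −0.19) had an edgeR adjusted p of 0.0751. With the DESeq2 Wald test IL6ST (adjusted p = 0.0104) and OSMR (adjusted p = 0.0315) passed, and in the authors' deposited table neither did (adjusted p of 0.317 and 0.0648). OSMR overlaps RICTOR on the opposite strand, which had 1095 and 876 counts in the libraries labelled sg53BP1, against 906 and 1447 in those labelled sgControl.

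LIFR, the chain that pairs with gp130 to bind LIF, was not called. It had 25.2 and 18.3 CPM in the libraries labelled sg53BP1, against 26.0 and 27.9 CPM in those labelled sgControl, a log2 fold change of −0.31 (SE 0.18, 95% interval −0.72 to 0.11, edgeR adjusted p = 0.411). Its groups did not overlap, but sg53BP1 library 1 lay next to sgControl library 1. IL6R, the alpha chain for IL-6, was near the lower end of what was tested, with 34 and 40 counts in the libraries labelled sg53BP1, against 44 and 39 in those labelled sgControl. Its level was 1.88 and 2.22 CPM in sg53BP1-labelled, against 2.65 and 2.32 CPM in sgControl-labelled libraries, and the 95% interval of its log2 fold change, −1.14 to 0.59, takes in both directions (edgeR adjusted p = 0.763).

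To compare genes with each other, CPM were divided by the merged exon length in GENCODE release 29, which overstates the length of a gene whose short isoforms are used. LIF stood highest on this scale, at 60.2 and 68.4 CPM per kb in the libraries labelled sg53BP1, against 86.6 and 111 in those labelled sgControl. In the libraries labelled sg53BP1 the mean levels then ran IL6ST 25.6, CSF1 25.0, IL11 15.9, OSMR 14.2, CSF2 3.17, IL6 2.61, LIFR 1.83 and IL6R 0.318 CPM per kb. The ranges of IL6ST and CSF1 overlapped there, while the 2 libraries of each other neighbouring pair in this order did not. In the libraries labelled sgControl the means ran IL6ST 47.2, CSF1 25.9, OSMR 20.0, CSF2 16.7, IL11 13.3, IL6 11.5, LIFR 2.27 and IL6R 0.385 CPM per kb. There every neighbouring pair from IL6ST down to IL6 overlapped in range, so the order within each such pair is not set. IL6ST still lay above OSMR, CSF2, IL11 and IL6 in both libraries labelled sgControl.

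**Figure D3:**
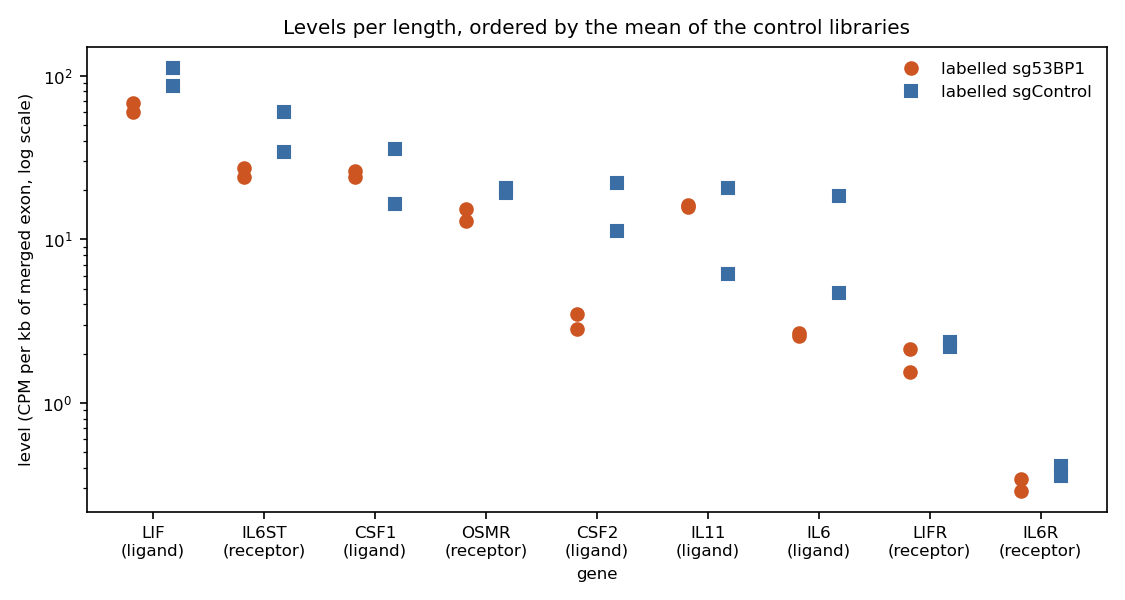
Level in CPM per kb of merged exon (vertical axis, log scale) of the 9 tested genes in each library, with genes ordered by the mean of the libraries labelled sgControl and the libraries labelled sg53BP1 drawn to the left. LIF is the highest in every library, LIFR and IL6R are the lowest, and CSF2 and IL6 lie lower in the libraries labelled sg53BP1.

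The shared chain gp130 exceeded the chains it pairs with in every library. IL6ST stood 1.77 and 1.84 times as high as OSMR per kb in the libraries labelled sg53BP1, against 2.91 and 1.77 times in those labelled sgControl. It was 12.9 and 15.5 times as high as LIFR in the libraries labelled sg53BP1, against 27.5 and 14.5 times in those labelled sgControl. Over IL6R the ratio was 93.7 and 69.4 in sg53BP1-labelled, against 147 and 95 in sgControl-labelled libraries. In all 3 ratios sgControl library 1 was the highest, and sgControl library 2 lay within or close to the values of the libraries labelled sg53BP1. Among the colony-stimulating factors, CSF1 was 6.79 and 9.27 times as high as CSF2 per kb in the libraries labelled sg53BP1, against 1.46 and 1.60 times in those labelled sgControl. This ratio did not overlap between the groups and was close within each pair, while CSF1 was 2.15-fold and CSF2 1.96-fold higher in sgControl library 2 than in library 1. The gap between the control libraries ran both ways across the set: IL6, IL11, IL6ST, OSMR and IL6R were higher in sgControl library 1, and LIF, CSF1, CSF2 and LIFR in sgControl library 2. It exceeded 1 on the log2 scale for 3 of the 9 genes, IL6, IL11 and CSF1, while the largest gap between the libraries labelled sg53BP1 was 0.45, in LIFR.

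The genes whose pattern over the 4 libraries lay nearest to that of CSF2, by Euclidean distance of centred log2 CPM among 10399 other genes with at least 5 CPM on average, were PLXDC2, MBP and NGFR, at distances of 0.13, 0.26 and 0.32. PLXDC2, a plexin-domain membrane protein, had 3.21 and 2.67 CPM in the libraries labelled sg53BP1, against 9.58 and 21.1 CPM in those labelled sgControl. MBP, which encodes myelin basic protein and related Golli proteins, had 6.47 and 5.11 CPM in sg53BP1-labelled, against 25.0 and 40.9 CPM in sgControl-labelled libraries. NGFR, the low-affinity neurotrophin receptor, had 2.21 and 1.5 CPM in sg53BP1-labelled, against 5.18 and 12.0 CPM in sgControl-labelled libraries. All were lower in the libraries labelled sg53BP1 and higher in sgControl library 2 than in library 1, and with 4 libraries such likeness is a description. Of the 10 genes, 4 lie on chromosome 5 (CSF2, IL6ST, LIFR and OSMR), where LIFR and OSMR are neighbours in GENCODE release 29. Of the protein-coding genes on either side of CSF2 in that annotation, the one before it was not analysed here. The one after it, P4HA2, a collagen prolyl hydroxylase subunit chosen after its values were seen, had 33.5 and 34.7 CPM in the libraries labelled sg53BP1, against 59.1 and 73.3 CPM in those labelled sgControl (log2 fold change −0.96, edgeR adjusted p = 0.00942). OSM, a neighbour of LIF and the ligand of OSMR, had 0 and 1 counts in the libraries labelled sg53BP1, against 0 and 0 in those labelled sgControl.

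The rest of the pathway is described by lists of genes, whose counts of calls stand beside the 5.08% of all tested genes that were called, 3.01% lower in the libraries labelled sg53BP1, and whose medians stand beside −0.02 over all tested genes. No list was tested against other genes. Each call in the pathway and marker lists below was lost without sg53BP1 replicate 1 and without sg53BP1 replicate 2, with edgeR adjusted p between 0.0842 and 0.621. Of 8 other ligands of the family 3 could be tested, and none passed (edgeR, 0 also at an unadjusted p under 0.05 and 0 with DESeq2). CLCF1, a ligand of the ciliary neurotrophic factor receptor, was the highest of these, with 13.8 and 19.1 CPM in the libraries labelled sg53BP1, against 18.3 and 22.7 CPM in those labelled sgControl. Of 8 other receptor chains 4 could be tested and none passed (edgeR, 1 at an unadjusted p under 0.05 and 1 with DESeq2), with 2 positive and 2 negative log2 fold changes and a median of −0.10. The CSF-1 receptor CSF1R had 2.32 and 2.11 CPM in the libraries labelled sg53BP1, against 9.04 and 4.05 CPM in those labelled sgControl (log2 fold change −1.56, SE 0.42, edgeR adjusted p = 0.0779). The IL-11 alpha chain IL11RA had 1.60 and 2.33 CPM in sg53BP1-labelled, against 1.75 and 5.65 CPM in sgControl-labelled libraries, without a call (adjusted p = 0.456 in edgeR). IL31RA, a chain of the IL-31 receptor, had 3.15 and 2.17 CPM in sg53BP1-labelled, against 1.57 and 1.13 CPM in sgControl-labelled libraries (log2 fold change 0.98, edgeR adjusted p = 0.262). IL27RA, which pairs with gp130 to bind IL-27, had 3.93 and 3.56 CPM in sg53BP1-labelled, against 2.95 and 1.61 CPM in sgControl-labelled libraries (log2 fold change 0.71, edgeR adjusted p = 0.383). CNTFR and the receptor chains of CSF2 and CSF3, CSF2RA, CSF2RB and CSF3R, were not analysed here.

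Below the receptor, 1 of 10 tested JAK-STAT signalling genes fell and none rose, with a median log2 fold change of −0.01. JAK2, a kinase bound to gp130, had 14.4 and 12.7 CPM in the libraries labelled sg53BP1, against 23.0 and 24.6 CPM in those labelled sgControl (log2 fold change −0.82, SE 0.17, edgeR adjusted p = 0.0288). JAK1, held to be the main kinase at gp130, had 174 and 151 CPM in sg53BP1-labelled, against 177 and 192 CPM in sgControl-labelled libraries, and STAT3 had 115 and 99.1 CPM in sg53BP1-labelled, against 80.0 and 135 CPM in sgControl-labelled libraries, both without a call. Of 7 tested brakes on the pathway 1 fell and none rose (median 0.11). SOCS2, a suppressor best known from growth hormone signalling, had 14.0 and 12.9 CPM in sg53BP1-labelled, against 25.2 and 25.7 CPM in sgControl-labelled libraries (log2 fold change −0.92, SE 0.16, edgeR adjusted p = 0.0143). SOCS3, the suppressor that binds gp130 itself and is induced by STAT3, had 27.1 and 29 CPM in sg53BP1-labelled, against 20.6 and 21.0 CPM in sgControl-labelled libraries, without a call (log2 fold change 0.43, edgeR adjusted p = 0.151). Of 13 tested STAT3 targets 1 rose and 1 fell, with a median of 0.01. CCND1, a cyclin of G1, rose by 0.61 on the log2 scale (edgeR adjusted p = 0.0438), and the transcription factor CEBPB fell by 0.85 (adjusted p = 0.0229 in edgeR).

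**Figure D4:**
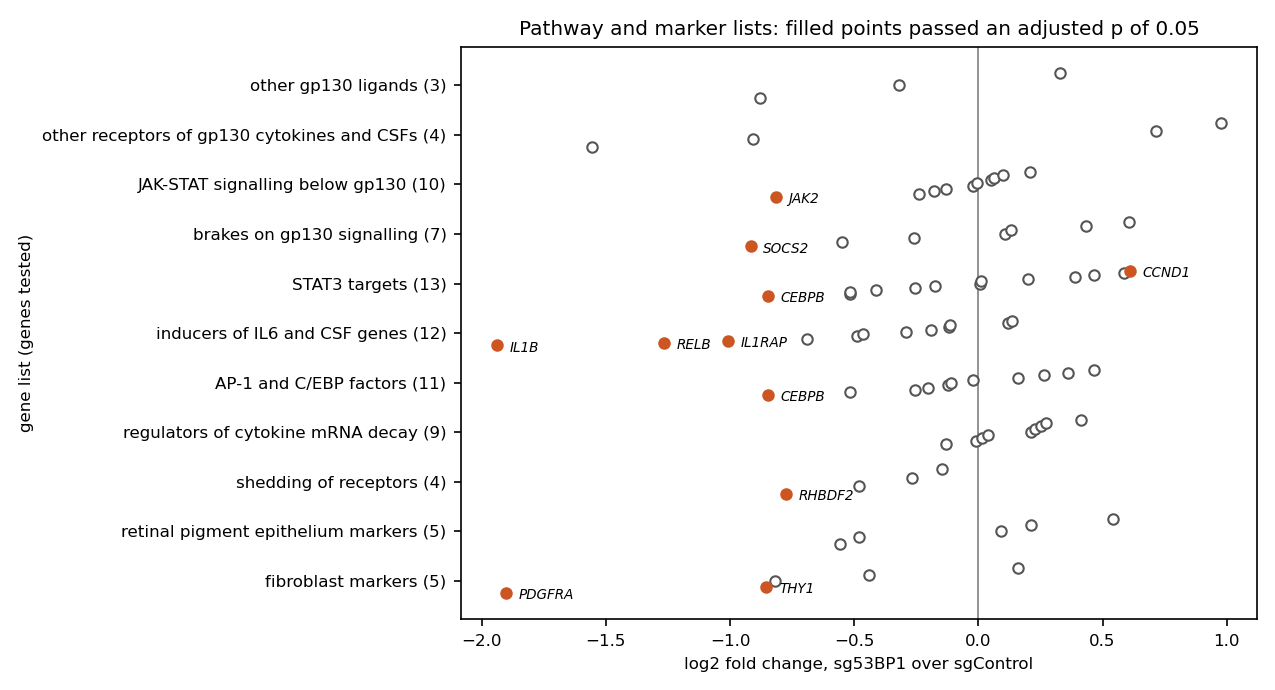
Log2 fold change, sg53BP1 over sgControl (horizontal axis), of each tested gene in the pathway and marker lists (vertical axis, with the number tested). Filled, named points passed an edgeR adjusted p of 0.05, and open points did not. In the list named inducers of IL6 and CSF genes, which includes the inhibitor gene NFKBIA, 3 points are filled, all below 0. CCND1 is the only filled point above 0.

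A list of genes known to switch on IL6 and the colony-stimulating factors also held NFKBIA, which encodes an inhibitor of NF-kappaB. Of the 12 tested genes of this list 3 fell, beside 3.01% of all tested genes, and none rose. Their median log2 fold change was −0.38. IL1B, interleukin-1 beta, had 52.9 and 51.8 CPM in the libraries labelled sg53BP1, against 226 and 175 CPM in those labelled sgControl (log2 fold change −1.94, SE 0.15, edgeR adjusted p = 3.97e-04). IL1RAP, the signalling chain of its receptor, fell by 1.01 on the log2 scale and RELB, a subunit of NF-kappaB, fell by 1.26 (edgeR adjusted p = 0.0181 and 0.0394). IL1A, with 9.40 and 7.33 CPM in sg53BP1-labelled, against 13.1 and 7.44 CPM in sgControl-labelled libraries, and the NF-kappaB subunit RELA, with 74.0 and 86.4 CPM in sg53BP1-labelled, against 85.9 and 97.4 CPM in sgControl-labelled libraries, did not pass. TNF had 4 and 0 counts in the libraries labelled sg53BP1, against 0 and 2 in those labelled sgControl. Of 11 tested AP-1 and C/EBP factors CEBPB, already on the STAT3 list, was the call (0 higher, 1 lower, median −0.11). CEBPB, a factor that binds the IL6 promoter, had 38.6 and 44.4 CPM in sg53BP1-labelled, against 64.9 and 84.3 CPM in sgControl-labelled libraries.

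None of 9 tested regulators of cytokine mRNA decay passed (edgeR, 1 at an unadjusted p under 0.05 and 0 with DESeq2), with a median of 0.21. ZFP36, which binds AU-rich elements and promotes decay of cytokine mRNAs, had 18.2 and 23.6 CPM in the libraries labelled sg53BP1, against 15.2 and 16.1 CPM in those labelled sgControl. Of 4 genes that shed or help to shed cytokine receptors from the membrane, 1 fell and none rose (median −0.37). RHBDF2, the iRhom protein that carries the sheddase ADAM17 to the surface, had 18.5 and 23.4 CPM in sg53BP1-labelled, against 35.4 and 36.4 CPM in sgControl-labelled libraries (log2 fold change −0.77, SE 0.16, edgeR adjusted p = 0.0304), while ADAM17 itself, with 48.9 and 42.8 CPM in sg53BP1-labelled, against 49.6 and 52.0 CPM in sgControl-labelled libraries, did not pass.

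Marker genes of other cells were examined beside these results, since fewer cells of a type and less RNA per cell cannot be told apart in bulk samples. The leukocyte markers PTPRC, CD14, CD68 and LYZ summed to 0.389 to 0.885 CPM in sg53BP1-labelled, against 0.964 to 1.37 CPM in sgControl-labelled libraries. None of these 4 reached the level needed for a test (edgeR, DESeq2 calls 0). CSF1R, a leukocyte marker described above with the receptors, was left out of this sum. It was tested, with 2.32 and 2.11 CPM in sg53BP1-labelled, against 9.04 and 4.05 CPM in sgControl-labelled libraries (log2 fold change −1.56, edgeR adjusted p = 0.0779). CD3E and ITGAM were not analysed here. Of the 7 fibroblast markers 5 could be tested: 2 fell, THY1 (log2 fold change −0.85, edgeR adjusted p = 0.00602) and PDGFRA (−1.90, edgeR adjusted p = 0.0386), none rose, and the median log2 fold change was −0.82. Their summed level was 203 to 213 CPM in the libraries labelled sg53BP1, against 336 to 379 CPM in those labelled sgControl. Most of it came from THY1 and FAP. The sum was higher in sgControl library 1 than in library 2, as were FAP, PDGFRB, COL1A1 and DCN. THY1 and PDGFRA, like CSF2, were higher in sgControl library 2. COL1A1 did not share the direction of the difference between the groups. It had 9.07 and 11.3 CPM in the libraries labelled sg53BP1, against 9.28 and 8.93 CPM in those labelled sgControl (log2 fold change 0.16, edgeR adjusted p = 0.765). LUM had 6 and 6 counts in the libraries labelled sg53BP1, against 0 and 0 in those labelled sgControl, and DCN had 3 and 3 counts in sg53BP1-labelled, against 22 and 2 in sgControl-labelled libraries. The summed level thus differed between the groups in the direction of CSF2 while its members did not all do so, and the part of these markers in that result was not tested. Of 5 tested retinal pigment epithelium markers none passed (edgeR, 1 at an unadjusted p under 0.05 and 0 with DESeq2), with a median of 0.09. Of these, 3 had positive log2 fold changes, OTX2 (0.54), MITF (0.21) and KRT18 (0.09), and 2 negative, KRT8 (−0.48) and PMEL (−0.56). The groups overlapped for KRT18. Both libraries labelled sg53BP1 lay below the others for KRT8 and PMEL, as they did for 25.9% of all tested genes. They lay above the others for OTX2 and MITF, a direction whose share over all tested genes was not computed.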

How the data were processed

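The RNA-seq libraries numbered 4, of which 2 were labelled sg53BP1 and 2 sgControl. Per the submitters' processing notes the tools were Bowtie2 2.2.3, HISAT2 2.1.0 and HTSeq 0.6.0, with build hg19. Their roles, the annotation and the strand were not given in the sources used here. The authors deposited a table of raw read counts per gene. It also holds the authors' own comparison of the deposited libraries: p-values, raw and adjusted, a log2 fold change with its error, a score (the test statistic) and a signal value (the mean level). The column names in the file headers are names that DESeq2 uses, and the headers do not name the tool. For 97.8% of 11943 genes with at least 100 counts the sign of that log2 fold change was control over knockout. Columns were matched to samples by their descriptions in the labels, and 397 repeated rows of identical counts were removed.

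Groups were compared with the edgeR 4.0.16 quasi-likelihood F test in R 4.3.3 (filterByExpr, TMM, robust dispersion, group as the only term), with Benjamini-Hochberg adjustment over 13140 genes and a threshold of 0.05. Each standard error was derived from F. The script was tested on simulated data. Chi-square per degree of freedom was 6.90 for the pair labelled sg53BP1 and 53 for that labelled sgControl, so within each pair neither library was a repeat of the other. Alternatives were DESeq2 1.42.0 size factors and Wald test, library totals, other low-count filters, limma-voom (limma 3.58.1), a block for the replicate number, and leaving out single libraries. All 10 genes of the set are named, with TP53BP1, up to 4 called genes of each pathway or marker list, and the 3 genes nearest to a called one; every other gene named with values was chosen after its values were seen. The genes and lists were chosen with earlier results of these data known.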

Additional observations from a re-analysis of the deposited data

How the results depend on the processing

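The call of CSF2 held under 9 of 11 alternatives and was lost without either library labelled sg53BP1, with log2 fold changes between −2.77 and −1.82 throughout. The number of called genes of the set was 1 with all 4 libraries (CSF2), 4 without a filter on low counts and 4 with the DESeq2 Wald test. Leaving out 1 library moved it between 0 and 7. It was 0 without sg53BP1 replicate 1 and without sg53BP1 replicate 2 (edgeR; 3 and 2 at unadjusted p under 0.05), 7 without sgControl replicate 1 and 6 without sgControl replicate 2. The spread then came from the pair left whole, and the lone library was assumed to vary like it. Over all genes the count of calls was 667, against 1548 without a filter on low counts, 297 with the replicate number as a block, and 5 to 3358 when 1 library was left out.

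CSF1 changed direction with limma-voom (log2 fold change 0.0493), with the replicate number as a block (0.0477), without sg53BP1 replicate 1 (0.0169) and without sgControl replicate 2 (0.61); its range when 1 library was left out was −0.47 to 0.61. IL11 changed direction without sgControl replicate 2 alone, and its range was −0.35 to 1.41. The cause was not tested. The labels do not say that replicate numbers pair the libraries, and the deviations of same-numbered libraries from their group means correlated with r = 0.03 across genes. With the block CSF2 kept its call (adjusted p = 0.0495), whereas JAK2, SOCS2, CCND1, IL1RAP, RELB, RHBDF2 and PDGFRA lost theirs (adjusted p = 0.0842, 0.0564, 0.121, 0.0766, 0.0813, 0.0692 and 0.0932). TP53BP1 and all called genes named from the lists lost their calls without sg53BP1 replicate 1 and without sg53BP1 replicate 2. Depth limits IL6R, whose counts were 34 to 44, and CSF3.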
